A study of Mus musculus with 2 samples.

Results

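Among the cells that the study annotated as granulocytes (G) in the mouse fetal liver at E12.5, midway through gestation, 149 of 287 carried mainly transcripts of late granule proteins. They were chosen by a count: a G cell was called a late G cell when the unique molecular identifiers (UMIs, 1 for each captured transcript) of Ngp, Camp, Ltf, S100a8 and S100a9 together outnumbered those of Mpo, Elane, Prtn3 and Ctsg. The late G cells were 51.9% of G cells (95% Clopper-Pearson interval, 46.0 to 57.8) and 1.41% of the 10537 annotated cells. Library 1 held 87 of them among 157 G cells (55.4%, 47.3 to 63.3) and library 2 held 62 among 130 (47.7%, 38.9 to 56.6). The intervals overlap, and like all intervals given here they cover counting error only.

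All cells came from 1 wild-type liver of a C57BL/6J embryo (C57BL/6 in the sample labels) at E12.5, so no genotype, treatment or time point is compared. After digestion of the tissue, intact live single cells were sorted by flow cytometry, and the sorted suspension was run 2 times on a 10X Chromium instrument. The libraries are therefore repeats of the same cell suspension and not of animals, and no test of a biological difference was possible. The late G cells were compared with the remaining 138 G cells (70 in library 1, 68 in library 2), called other G cells here, and with the 114 cells annotated as monocytes and Kupffer cells (Mo/KC, 56 and 58).

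Neutrophils mature through a fixed order of granule programmes. Promyelocytes make the primary (azurophilic) granules, which are loaded with myeloperoxidase and serine proteases; myelocytes and metamyelocytes then switch to secondary (specific) granules with lactoferrin, cathelicidin and lipocalin, and the last stages add tertiary granules with gelatinases and the receptors of a circulating cell. In mice, granulocyte production starts in the fetal liver before the bone marrow takes over.

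The number of UMIs per cell differed between the groups. Late G cells had a median of 7904 UMIs (5934 in library 1 and 10243.5 in library 2, from 1209 to 24695) and 1932 detected genes. Other G cells had a median of 18476 UMIs and 3934 genes, and Mo/KC cells 13551.5 UMIs and 3290 genes. Library 2 kept no cell under 4387 UMIs, whereas 23 of the 87 late G cells of library 1 (26.4%) lay below that value. Of the 70 other G cells of library 1, 6 (8.57%) lay below it. At or above it, library 1 held 64 late G and 64 other G cells. Over both libraries late G cells were then 48.8% of G cells, so the late share depends on the lowest UMI number kept. The late G cells held 1340961 UMIs in all, 674950 of them in library 1, and 1132759 and 560845 outside the 9 genes of the rule.

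The promoters of the marker genes are shown first, for 5 genes of the rule and for Lcn2, the first-ranked gene outside it in the comparison with Mo/KC cells. Each run below is the 250 bases before the RefSeq transcript start on GRCm38.p6, written in the direction of the gene. Capitals mark a match, on either strand, to TTGCNNAA, the core bound by C/EBP factors, or to GGAAGT, a core bound by PU.1, and no match of one overlapped a match of the other in these windows.
Ngp, chr9:110419558-110419807, plus strand: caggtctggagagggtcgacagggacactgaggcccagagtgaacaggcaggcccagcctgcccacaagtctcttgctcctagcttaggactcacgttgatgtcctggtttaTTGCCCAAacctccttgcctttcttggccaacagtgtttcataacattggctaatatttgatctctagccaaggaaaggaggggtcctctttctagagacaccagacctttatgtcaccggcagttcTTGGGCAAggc
Camp, chr9:109849457-109849706, minus strand: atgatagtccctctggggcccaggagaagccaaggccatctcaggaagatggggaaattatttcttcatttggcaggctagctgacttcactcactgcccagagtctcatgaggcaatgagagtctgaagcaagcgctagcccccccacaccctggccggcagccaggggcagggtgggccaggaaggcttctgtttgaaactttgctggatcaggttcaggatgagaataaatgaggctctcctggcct
Ltf, chr9:111019042-111019291, plus strand: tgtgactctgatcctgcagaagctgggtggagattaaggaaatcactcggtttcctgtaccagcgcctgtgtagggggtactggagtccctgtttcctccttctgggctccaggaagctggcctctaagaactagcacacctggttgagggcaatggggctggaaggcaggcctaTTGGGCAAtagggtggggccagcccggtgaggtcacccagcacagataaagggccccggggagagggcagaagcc
Lcn2, chr2:32387740-32387989, minus strand: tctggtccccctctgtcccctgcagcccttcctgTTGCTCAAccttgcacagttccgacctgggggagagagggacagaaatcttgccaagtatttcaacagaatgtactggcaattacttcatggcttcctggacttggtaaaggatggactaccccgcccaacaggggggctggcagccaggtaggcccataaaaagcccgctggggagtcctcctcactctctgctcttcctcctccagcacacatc
Mpo, chr11:87793534-87793783, plus strand: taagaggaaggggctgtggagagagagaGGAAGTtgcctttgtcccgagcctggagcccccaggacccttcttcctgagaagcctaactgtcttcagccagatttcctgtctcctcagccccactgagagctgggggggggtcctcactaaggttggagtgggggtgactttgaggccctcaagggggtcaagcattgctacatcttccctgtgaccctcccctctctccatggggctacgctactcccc
Elane, chr10:79886062-79886311, plus strand: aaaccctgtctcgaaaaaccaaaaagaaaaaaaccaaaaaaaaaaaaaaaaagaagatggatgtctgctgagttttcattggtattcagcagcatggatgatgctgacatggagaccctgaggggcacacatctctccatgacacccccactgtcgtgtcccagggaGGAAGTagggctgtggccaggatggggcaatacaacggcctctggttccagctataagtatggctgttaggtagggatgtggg

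In these windows Ngp had TTGCNNAA at 138 and 11 bases before the start, Ltf at 75 and Lcn2 at 216, whereas Mpo and Elane had GGAAGT at 222 and 83 bases. Camp had a match to neither. Counted in windows of 300 bases that also take in 50 bases after the start, TTGCNNAA was present in 3 of the 5 late rule genes (Ltf, Ngp and S100a9) and in 0 of the 4 early rule genes, against 3547 of all 32851 promoters (10.8%). It was present in 6 of 20 promoters of 19 secondary and tertiary granule genes outside the rule (30%) and in 5 of 17 promoters of 14 primary granule genes (29.4%). GGAAGT was present in all 4 early rule genes, in 2 of the 5 late rule genes (S100a8 and S100a9), in 10 of the 20 and 6 of the 17 promoters of the 2 lists, and in 23.8% of all promoters. A match is a run of letters and not a measured binding site.

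The genes that chose the cells are given as levels only. Their values are CPM (UMIs scaled to a total of 1000000 over all genes), summed over the cells of a group in each library. Gene positions are those of GENCODE vM21 on GRCm38. Their starts differ from the RefSeq starts of the promoter windows above for some genes. The windows of Ngp, Camp and Ltf overlap the gene spans given below, and that of Lcn2 lies within its span. Ngp, a granule protein of the cathelicidin family (chr9:110419747-110423012), stood at 29497 CPM in library 1 and 19316 in library 2, with a UMI in 136 of the 149 late G cells. In other G cells it stood at 7.40 and 6.50 CPM, never with more than 1 UMI in a cell. Camp, the precursor of the antimicrobial peptide cathelicidin (chr9:109847379-109849617), was at 23397 and 20821 CPM in late G cells, and Ltf, the iron-binding lactoferrin (chr9:111019271-111042767), at 8201 and 4116. The calprotectin subunits S100a8 and S100a9, which bind calcium and zinc, were found in 147 and 149 of the cells. S100a8 was at 48661 and 36939 CPM, and S100a9 at 54669 and 53277. These 2 genes did not mark G cells alone: S100a8 was at 4397 and 5360.3 CPM in Mo/KC cells and S100a9 at 2596 and 3860.4.

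The 4 genes of the early sum were not absent from late G cells. Mpo, myeloperoxidase, was at 1886 and 2685 CPM in late G cells and had a UMI in 47 of them, against 5954 and 4725 CPM in other G cells. Elane, neutrophil elastase, was at 1022 and 1437 CPM in 44 late G cells and at 1236 and 922 in other G cells. The serine proteases Prtn3 and Ctsg had UMIs in 59 and 12 late G cells.

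Most G cells lay far from the dividing line. Of the 287, 121 had over 90% of their rule UMIs in the late genes, 120 had under 10%, and 13 lay between 1/3 and 2/3. Just inside the rule were a library 1 cell with 1 late and 0 early UMIs among 5891 and a library 2 cell with 154 against 87 among 7867. Just outside were cells with 1 against 2 (5161 UMIs), 0 against 1 (5146) and 108 against 109 (6722), and 1 G cell had no UMI of any rule gene. In 87 late G cells (59 in library 1, 28 in library 2) no early UMI was found, although the median late G cell held 1320 late UMIs, 19.8% of its total. Ly6g, the surface antigen that is used to sort mouse neutrophils and a marker that the rule does not use, had a UMI in 62 late G cells, and its values follow with the surface genes. The paper names Ly6g as its marker of the granulocyte cells, so the gene is not independent of the G label.

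**Figure D1:**
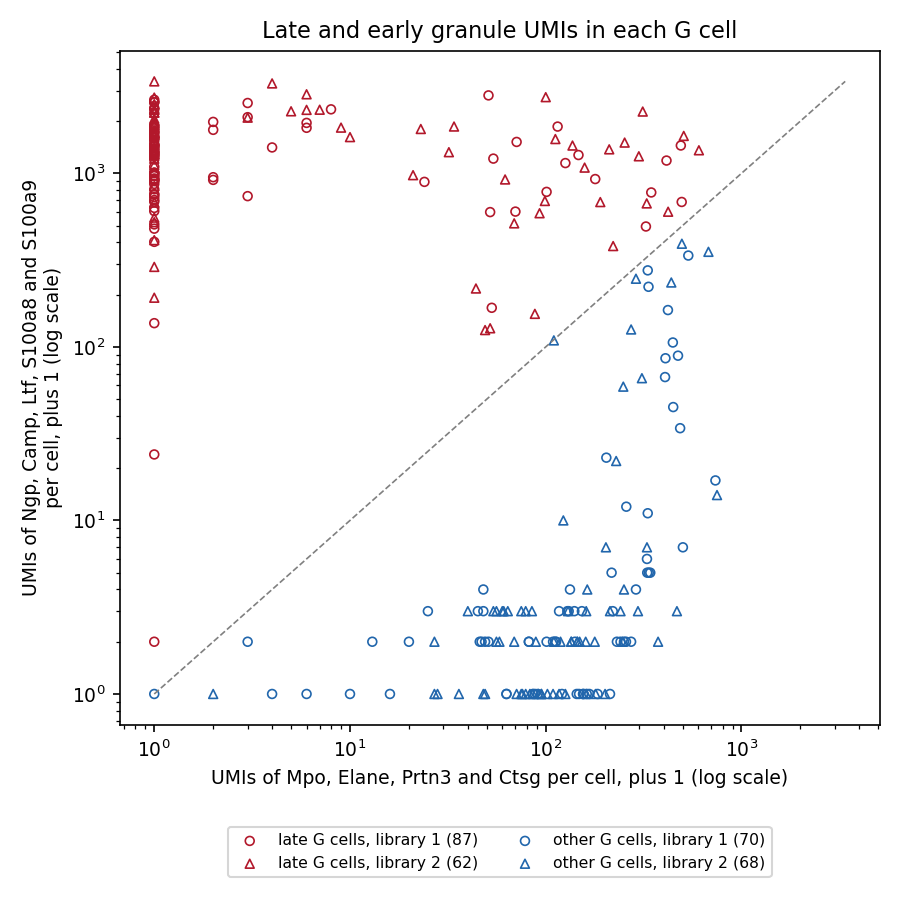
Each point is a G cell, placed by its UMIs of the 4 early genes (x axis) and the 5 late genes (y axis), both plus 1 on log scales, with circles for library 1 and triangles for library 2. The 149 late G cells lie above the dashed line of equality and the 138 other G cells on or below it, and 87 late G cells stand at the left edge with 0 early UMIs.

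Apart from values of rule genes themselves and percents of a cell's UMIs, the values that follow leave out these 9 genes, from the genes and from the total. CPM of genes outside the rule thus take the remaining UMIs as the total. A gene was called higher or lower when its level differed at least 2-fold in the same direction in each library and reached 20 CPM in either group of each library. Ratios are given with exact conditional binomial 95% intervals. Because the annotation was made by clustering these same counts and the cells were then divided by some of them, each comparison is a description of the cells chosen and not a test. Of 5217 genes measured at that level, 541 (10.4%) were higher and 856 (16.4%) lower in late G than in other G cells, together 26.8%, and the median log2 ratio of all of them was -0.33. A gene near 0 in one group reached the minimum only through the other group, so counts over list members that reached it describe them and support nothing further. With the 9 genes left in the total, the counts were 413 higher and 1227 lower.

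Erythroid transcripts were more abundant in late G cells and are given before the rest. The 10 erythroid markers summed to 34493 CPM in library 1 and 91542 in library 2 in late G cells, to 10499.5 and 23843 in other G cells and to 11391 and 37708 in Mo/KC cells, and all 10 were called higher than in other G cells. In barcodes with 1 to 50 UMIs, which hold free RNA, the same sum was 202194 and 386358 CPM. The sum was carried by few cells: 21 late G cells (7 in library 1, 14 in library 2) had at least 2% erythroid UMIs and 18 at least 10%, up to 55.5% in 1 cell. The median late G cell had 0.893%. Without the cells at or above 2%, in every group, the log2 ratio of the erythroid sum to other G cells went from 1.88 to 0.38, while 586 genes were then higher and 859 lower. Of the 541 higher and 856 lower genes called with all cells, 491 and 745 were among them. No late G barcode was shared with a cell of the other library, against 31 barcodes shared among all annotated cells.

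The secondary and tertiary granule genes outside the rule were far higher in late G cells. Of 23 listed genes, 17 reached the level for a comparison, and all 17 were higher than in other G cells, with a median log2 ratio of 6.55. Their summed level was 69467 and 44289.9 CPM in late G cells against 3229 and 2348 in other G cells, a ratio of 20.4. Lcn2, the lipocalin that binds bacterial siderophores (chr2:32384633-32388252, minus strand), was at 12166 and 8444 CPM in late G cells and at 4.16 and 7.39 in other G cells, a ratio of 1777 (1059 to 3252). It was found in 144 of 149 late G cells. Pglyrp1, which recognises bacterial peptidoglycan, was at 6462 and 4536 CPM against 143 and 118 (42.0-fold, 37.5 to 47.2), and Anxa1, annexin A1, at 7391 and 4324 against 394 and 249.8 (18.2-fold). The groups were far apart in each library for all 3 genes.

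Lyz2, lysozyme, which monocytes share with neutrophils, was at 30534 and 19631 CPM in late G cells and at 1173 and 789.5 in other G cells (25.5-fold, 24.5 to 26.6). Hp, haptoglobin, had the least difference among the abundant granule genes except Cyba, with 2817 and 2282 CPM against 577 and 429.7 (5.07-fold). Slpi, the secretory leukocyte protease inhibitor, was at 1346 and 899 against 201 and 127 (6.86-fold). Wfdc21, another protein with a whey acidic protein domain, was at 1216 and 577 against 9.99 and 4.93 (120.1-fold, 75.6 to 203).

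Several granule and surface genes had no UMI at all in other G cells. Cd177, a surface protein of neutrophils held in granule membranes, had 224 UMIs in late G cells (284 and 114 CPM) and 0 in other G cells, which made it at least 159-fold higher against a floor of 3 counts over the group. On the same floor Itgb2l, an integrin beta subunit, was at least 237-fold higher (349 and 239.5 CPM), Ceacam10, of the carcinoembryonic antigen family, at least 197-fold (349 and 142 CPM), and Lrg1, a leucine-rich glycoprotein, at least 94.0-fold (164 and 69.9 CPM). These 4 genes had no UMI in Mo/KC cells either.

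Some genes of the list differed between the libraries. Mmp8, the neutrophil collagenase (chr9:7558456-7568485), was at 845 CPM in library 1 and 213 in library 2 in late G cells, with a UMI in 70 cells, and at 1.66 and 0.822 in other G cells, where 3 UMIs were found (ratio 424, 144 to 2063). Mmp9, gelatinase B (chr2:164940780-164955850), was at 383 and 103 CPM in late G cells and had 1 UMI in other G cells. Ifitm6, an interferon-induced membrane protein, was at 1938 and 215 CPM. Library 1 was higher for all 3 genes, and how Mmp8 and Mmp9 lie over the single cells is given further on. Olfm4, olfactomedin, which marks a subset of neutrophils, had 21 UMIs in 18 late G cells and 0 in both other groups. Chil3, a chitinase-like lectin, had 48 UMIs in 2 cells of library 2, and Ptx3, pentraxin, had 0.

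The inhibitors of cysteine and serine proteases were also abundant in late G cells. Of 12 listed genes, 10 were measured, 7 were higher and 1 (Cst7) was lower in late G cells, with a median log2 ratio of 3.16. They summed to 28453 and 26035 CPM against 2498 and 1922 in other G cells. BC100530, Gm5483 and 2010005H15Rik, given below, were not on this list and are not part of its sum. The stefins, small inhibitors of cysteine cathepsins, lie together on chromosome 16, where 7 genes named here (Stfa2l1, Gm5483, 2010005H15Rik, Stfa1, BC100530, Stfa2 and Stfa3) span chr16:36156811-36455392, 298.6 kb. Stfa1 was at 17531 and 16656 CPM in late G cells against 791 and 561 in other G cells, and BC100530 at 27232 and 15918 against 639 and 279. Stfa2 was at 1589 and 1116 CPM against 2 UMIs in all other G cells (ratio 1632, 451 to 13492). Stfa3 was 326-fold, Stfa2l1 434-fold and Gm5483 163-fold higher. These genes are close copies, so the division of reads among them is uncertain, whereas all 7 were called higher in late G cells. Serpinb1a, which inhibits elastase, proteinase 3 and cathepsin G, was at 1280.2 and 1173 CPM against 541 and 406 (2.59-fold).

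Primary granule and promyelocyte genes outside the rule did not move together. Of 15 listed genes, 14 were measured, 3 were higher and 4 lower, the median log2 ratio was -0.37, close to that of all genes, and the sum was 6993 and 7645 CPM in late G cells against 11118 and 9202. Fcnb, ficolin B, a secreted lectin, was at 1701 and 1848 CPM in late G cells and 153 and 57.5 in other G cells (16.9-fold, 14.8 to 19.3). The surface proteins Clec12a, an inhibitory lectin receptor, and Igsf6 were 4.20-fold and 3.002-fold higher. Calr, the chaperone calreticulin, was at 312 and 416 CPM in late G cells and at 2691 and 2685 in other G cells (7.37-fold lower, 6.67 to 8.16), and Plac8, Cst7 and Bex6 were also lower. Ms4a3, a marker of granulocyte and monocyte progenitors, was at 462 and 689 CPM against 603 and 469.9 and was not called, since the libraries lay on opposite sides of a ratio of 1.

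Many receptors and surface proteins of circulating neutrophils were higher in late G cells. Of 32 listed surface and response genes, 23 were measured, 17 were higher and 0 lower, with a median log2 ratio of 2.65. The list summed to 9468 and 5799.8 CPM against 1959 and 1503. Its most abundant member in late G cells was Stfa2l1, a stefin and not a receptor, so the sum is not one of receptors alone. Ly6g (chr15:75155240-75159126) was at 251 and 87.4 CPM in late G cells and had 0 UMIs in other G and Mo/KC cells, which made it at least 136-fold higher than in other G cells. After each cell was thinned to 3700 UMIs, Ly6g was found in 30.5% of the 134 late G cells deep enough (39.52% in library 1 and 20.05% in library 2), and before thinning in 41.6% of all late G cells (median 7904 UMIs) and in 0 of 138 other G cells (median 18476), where cells with a captured UMI could make up at most 2.64%, while the share that expresses the gene is not limited by it. Erythroblasts (Eryb), which should lack it, held 0.218 CPM. Retnlg, a resistin-like secreted protein of neutrophils, was at 1874 CPM in library 1 and 371 in library 2, in 58 cells, against 1 UMI in other G cells, and 135 of its 212 UMIs in library 2 lay in 1 cell.

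Cxcr2, the chemokine receptor that draws neutrophils out of the marrow into blood, was at 99.8 and 69.9 CPM in late G cells and at 15.8 and 18.9 in other G cells (4.88-fold, 3.36 to 7.19). Cxcr4, the receptor that holds them in the marrow, was also higher (76.7 and 68.2 against 21.6 and 18.9 CPM, 3.57-fold). The formyl peptide receptors Fpr1 and Fpr2, which sense bacterial products, had 73 and 120 UMIs in late G cells and 0 in other G cells. C5ar1, the complement anaphylatoxin receptor, was at 312 and 156 CPM against 3.33 and 1.64 (94.0-fold, 42.6 to 258). The 5 chemotaxis receptors were thus higher in late G cells in each library.

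Other receptors and response genes gave mixed values. Csf3r, the receptor for granulocyte colony-stimulating factor, was at 62.4 and 61.2 CPM in late G cells against 39.1 and 38.6 and was not called. Fcgr3, an immunoglobulin G receptor, was at 637 and 546 against 662 and 532. Fcgr4, another immunoglobulin G receptor, was 9.90-fold higher (6.20 to 16.5), the inhibitory receptors Pirb and Cd33 were 42.4-fold and 9.76-fold higher, and Il1r2, the decoy receptor for interleukin 1, had 48 UMIs against 1. Alox5 and Alox5ap, which start leukotriene synthesis, were 3.21-fold and 3.61-fold higher. Clec4e and Il1b, which neutrophils switch on under stimulation, had 0 and 3 UMIs in late G cells.

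Of the 8 genes of the respiratory burst, which makes superoxide in the phagosome, all were measured and 6 were higher, with a median log2 ratio of 2.31. The membrane subunits of the oxidase were Cybb at 585 and 430.1 CPM against 24.97 and 15.6 (25.01-fold, 18.7 to 34.2) and Cyba at 2516 and 1932 against 687 and 591 (3.48-fold). The cytosolic subunits Ncf1 and Ncf4 were 7.06-fold and 7.12-fold higher, the GTPase Rac2 2.58-fold and the proton channel Hvcn1 9.01-fold. Rap1a, a small GTPase, was at 332 and 259 against 246 and 231 CPM and was not called.

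**Figure D2:**
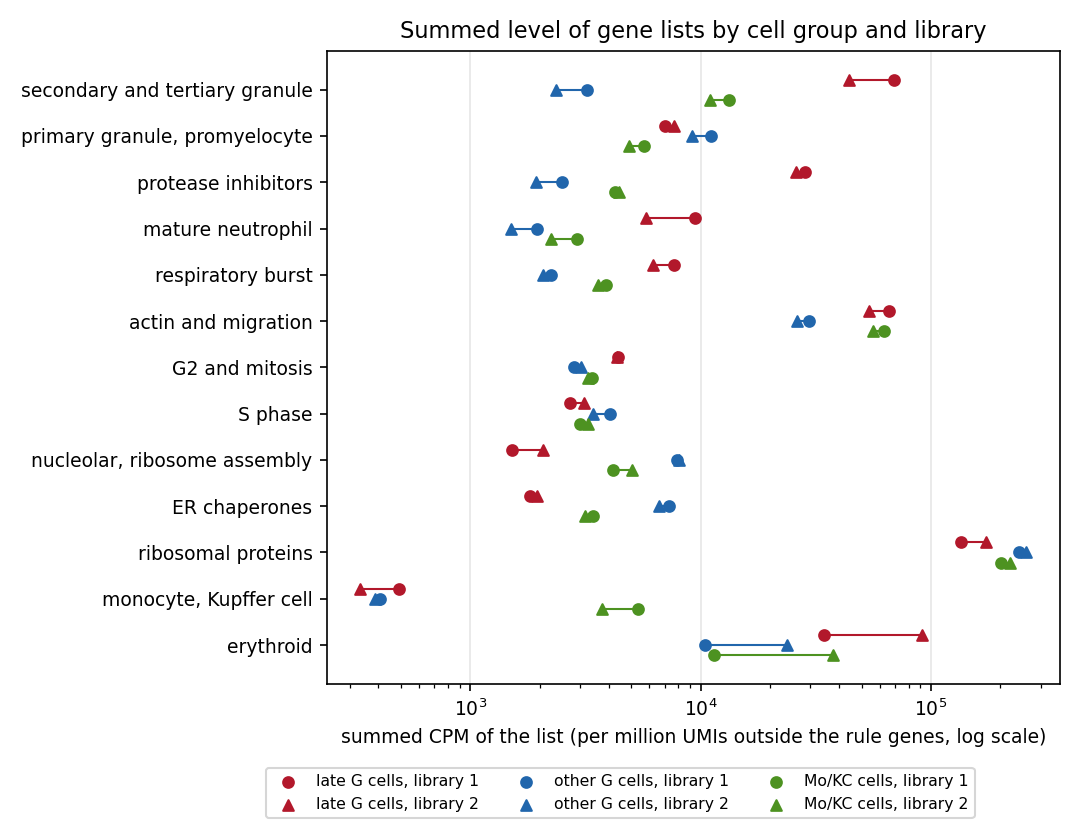
Summed CPM of 13 gene lists on a log axis for late G, other G and Mo/KC cells, with a circle for library 1 and a triangle for library 2 joined by a line. The secondary and tertiary granule, protease inhibitor, mature neutrophil and respiratory burst lists stand higher in late G than in other G cells in both libraries. The primary granule, nucleolar, endoplasmic reticulum (ER) chaperone and ribosomal lists stand lower in both.

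Genes of the actin skeleton and of migration were higher in part. Of 24 listed genes 9 were higher and 0 lower, with a median log2 ratio of 1.05, and they summed to 65824 and 53839 CPM against 29637 and 26163 in other G cells, a level like that of Mo/KC cells (62583 and 55868). Tmsb4x, the actin monomer-binding thymosin, was at 27651 and 24084 CPM against 9757 and 7869 (2.94-fold). Capg, which caps actin filaments, was 7.77-fold higher, Itgb2, the shared beta chain of the leukocyte integrins, 7.39-fold and Lsp1, an actin-binding protein of leukocytes, 4.27-fold. Tmsb10 was at 508 and 135 CPM against 795 and 295, below other G cells in each library. Of the S100 genes outside the rule, S100a11 was at 1970.2 and 1546 CPM against 333 and 298 (5.57-fold) and S100a6 was 25.7-fold higher, whereas S100a10 was at 24.96 and 6.99 against 139.8 and 134 (8.61-fold lower, 5.36 to 14.7). The S100 family thus did not move as a block.

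Among the transcription factors, 1 C/EBP factor was higher and another lower. Of 26 measured factors on the list, 22 reached the level for a comparison, 3 were higher and 7 lower. Cebpe, the C/EBP factor that secondary granule genes require (chr14:54710360-54712174), was at 1227 and 1077 CPM in late G cells and at 313 and 249.8 in other G cells (4.09-fold, 3.73 to 4.50), with a UMI in 144 of the 149 cells. Cebpa, the C/EBP factor of earlier progenitors (chr7:35119293-35121928), was at 10.7 and 19.2 CPM against 86.6 and 87.9 (5.81-fold lower, 3.54 to 10.2). The 2 factors therefore stood in opposite directions in each library.

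Irf8, which directs monocytes and dendritic cells, had 1 UMI in late G cells against 206 in other G cells (96.5-fold lower, 17.1 to 3829). Id2, an inhibitor of helix-loop-helix factors, was at 237 and 208 CPM against 7.49 and 1.64 (48.9-fold, 26.9 to 99.3), and Nfil3 was 2.96-fold higher. Myc, which drives growth, was at 26.7 and 8.74 CPM against 138 and 111 (7.05-fold lower), Myb was 2.82-fold lower, and Gata2, a factor of stem and mast cells, Zeb2 and Sox4 were lower too. Spi1, which encodes PU.1, was at 815 and 654 against 518 and 491, and Gfi1, a repressor that neutrophil development requires, at 35.7 and 56.0 against 25.8 and 20.5. Neither was called.

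Cell cycle genes were not lower as a whole. Of 22 S phase genes, all measured, 1 was lower (Gins2, a subunit of the replication helicase) and 0 higher, and their sum was 2716 and 3116 CPM in late G cells against 4051 and 3428 in other G cells. Of 23 genes of G2 and mitosis, all measured, 4 were higher and 0 lower (Ube2c, Cenpf, Nusap1 and Kif11), and their sum was 4383 and 4336 CPM against 2823 and 3025. In the barcodes of free RNA this list stood at 5281 and 4648 CPM and the S phase list at 3641 and 3139. The part of free RNA in the sums was not tested. Ube2c, a ubiquitin-conjugating enzyme of mitotic exit, was at 644 and 593 CPM against 215 and 242 (2.71-fold). The deposited phase labels put 92 late G cells in G1, 28 in S and 29 in G2/M, against 50, 36 and 52 other G cells. The groups differed in depth, and whether depth or free RNA shaped the labels was not tested.

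Cyclins and their inhibitors differed one by one. Ccnd3, a D-type cyclin, was at 713 and 605 CPM against 274 and 287 (2.35-fold), whereas Ccnd2 was 10.6-fold lower. The kinases that D-type cyclins activate were lower, with Cdk4 at 141 and 163 CPM against 675 and 666 (4.42-fold lower, 3.77 to 5.20) and Cdk6 3.02-fold lower. Their inhibitors Cdkn2d and Cdkn2c were 5.01-fold (284 and 198 against 44.1 and 51.8 CPM) and 13.1-fold higher. The antiproliferative Btg2 was 4.96-fold higher, and Cdkn1a, an inhibitor induced on DNA damage, was 3.62-fold lower.

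Genes of the nucleus that bear on its shape and chromatin gave 5 higher and 0 lower of 14 measured. Padi4, which citrullinates histones in neutrophils, was at 109 and 42.0 CPM against 3 UMIs in other G cells (60.5-fold, 20.01 to 299). Hmgb2, a chromatin protein, was at 4581 and 3588 against 2131 and 1709 (2.13-fold), and Lmna and Sun2, of the nuclear lamina and envelope, were 3.56-fold and 3.11-fold higher. Lbr, the lamin B receptor whose loss leaves neutrophil nuclei unlobed, was at 278 and 241 CPM against 181 and 165 and was not called.

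Genes of ribosome assembly were lower. Of 16 nucleolar and ribosome assembly genes 15 were measured and all 15 were lower, with a median log2 ratio of -2.08. Npm1, the nucleolar chaperone nucleophosmin, was at 715 and 904 CPM in late G cells against 3912 and 3800.5 (4.76-fold lower, 4.45 to 5.10), and Ncl, nucleolin, was 3.998-fold lower. The lowest ratios on the list were those of Mybbp1a and Wdr43, at 6.61-fold and 6.29-fold lower. Of 78 measured ribosomal protein genes 3 were lower and 0 higher, and together they summed to 135449 and 174164 CPM against 240361 and 259865 in other G cells and 200861 and 219834 in Mo/KC cells.

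Of 12 measured ER chaperone genes 7 were lower, with a median log2 ratio of -1.72 and a sum of 1826 and 1953 CPM against 7308 and 6572. Besides Calr these included Hspa5, the main ER chaperone (160.5 and 199 against 654 and 642 CPM, 3.60-fold lower), Manf (4.52-fold) and Sdf2l1 (4.35-fold). Of 20 nuclear-encoded respiratory chain genes 3 were lower (Ndufa4, Cycs and Atp5g1), and the median log2 ratio was -0.65. The 3 of 20 lay near the share of all tested genes that were lower (16.4%), while 10.4% of all were higher. The counts of the lists that follow stand beside the same shares. The 11 measured mitochondrially encoded genes gave 0 calls, with a median of -0.08. Glycolysis genes gave 3 higher and 2 lower of 14 measured. Pygl, liver-type glycogen phosphorylase, was at 451 and 245 CPM against 58.3 and 43.5 (6.82-fold), Hk3, a hexokinase of myeloid cells, was 3.07-fold higher, and Ldha, lactate dehydrogenase, was 2.30-fold lower. Slc2a1, the glucose transporter that red cells also carry, was 2.94-fold higher, beside the erythroid sums given above, whose part in this was not tested. Of 14 measured lipid and phagosome genes 6 were higher and 0 lower, among them the lysosomal proteases Ctsb and Ctsh, and of 6 measured apoptosis genes only Bax was lower.

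**Figure D3:**
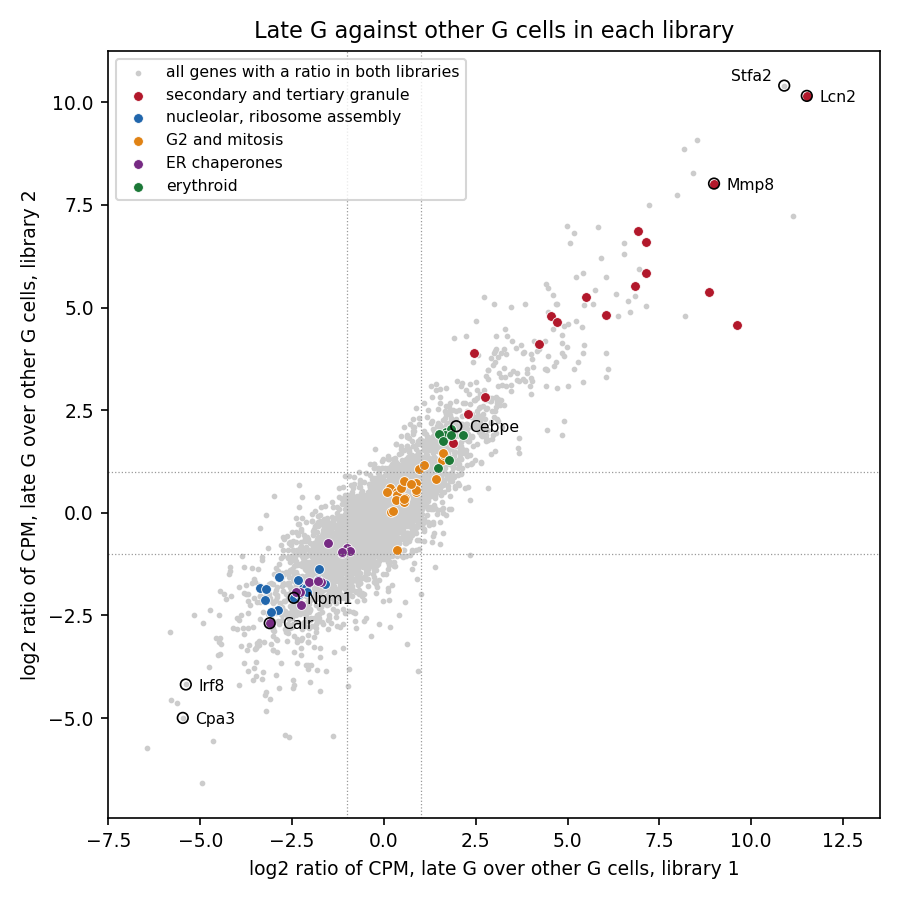
Log2 ratio of CPM in late G over other G cells, library 1 on the x axis and library 2 on the y axis, for each gene with a ratio in both libraries, with 5 lists in colour, 8 named genes ringed and dotted lines at 2-fold; genes with 0 UMIs in a group are drawn at the bound that 3 counts give. The secondary and tertiary granule genes lie in the upper right, up to Lcn2, and the nucleolar and ER chaperone genes in the lower left.

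By the rank of the smaller ratio of the libraries, the 12 genes that stood highest in late G over other G cells were Stfa2, Lcn2, Stfa2l1, Stfa3, Chil1, Mmp8, 2010005H15Rik, Retnlg, Gm5483, Wfdc21, Itgb2l and C5ar1. Of these, 5 lie in the stefin cluster. Chil1, a chitinase-like glycoprotein, was at 713 and 379 CPM against 1 UMI in other G cells. At the other end were Adgrg1, Cpa3, Hmga2, Ms4a6c, Cnn3, Ikzf2, Irf8, Prr5, Bmyc, Acsl3, Wdr75 and Cd48. Adgrg1, an adhesion receptor of stem and progenitor cells, had 3 UMIs in late G cells and 411 in other G cells (64.2-fold lower, 21.8 to 312). Hmga2, a chromatin protein of fetal stem cells, had 3 against 336, and Cpa3, the carboxypeptidase of mast cells and basophils, 3 UMIs in 1 cell against 490. The genes lowest in late G cells were thus near 0 in them in both libraries.

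Lists of markers of other cell types gave the following values. Of the 21 monocyte and Kupffer cell markers 10 had 0 UMIs in late G cells, among them Fcgr1, Timd4, Marco, Cd5l and C1qc, and the list summed to 489 and 334 CPM against 408 and 385 in other G cells and 5357 and 3741 in Mo/KC cells. Most of that sum was Ly6c2, which neutrophils and monocytes share, at 337 and 254 CPM against 69.9 and 61.6 in other G cells (4.49-fold). Of 7 members measured against other G cells, 2 were higher and 4 lower. The higher genes were Ly6c2 and Adgre1, a surface receptor of macrophages (57.1 and 22.7 CPM against 12.48 and 8.22, 3.84-fold, 2.31 to 6.54), which stood at 168 and 92.5 CPM in Mo/KC cells. Csf1r, Ccr2, F13a1 and Ms4a6c were the lower genes. The 10 mast cell and basophil markers summed to 185 and 135 CPM against 681 and 592, 5 of them at 0 UMIs. Nearly all of the sum was Hdc, which makes histamine and is also made by neutrophil precursors (168 and 129 CPM against 319 and 329). The stem and progenitor markers summed to 35.7 and 21.0 CPM against 267 and 319, with Cd34 13.7-fold lower (8.77 to 22.6). The 8 eosinophil markers summed to 717 and 1486 CPM against 203 and 332, and their leading gene was Prg2, the major basic protein of eosinophil granules. Prg2 had 948 UMIs in 21 late G cells, of which 913 (96.3%) lay in 7 cells (2 in library 1, 5 in library 2), and without those cells it stood at 33.1 CPM. Epx, the eosinophil peroxidase, had 51 UMIs in 2 cells of library 2. Of the 4 eosinophil markers measured in each comparison, Prg2 and Ear2 were higher than in other G cells, and Prg2, Prg3 and Siglecf higher than in Mo/KC cells. Ear2, a ribonuclease of eosinophil granules, had 59 UMIs in 34 late G cells (71.3 and 33.2 CPM against 0 and 1.64 in other G cells), and Siglecf, a sialic acid receptor of eosinophils, 104 in 48 (102 and 82.2 against 63.3 and 48.5 CPM). Prg3, a homologue of Prg2, had 87 UMIs in 14 cells. Megakaryocyte, hepatoblast, endothelial and lymphoid markers summed to at most 22.7, 47.2, 15.7 and 1.78 CPM in a library.

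Against Mo/KC cells, 419 of 5138 genes (8.15%) were higher and 638 (12.4%) lower in late G cells, together 20.6%, with a median log2 ratio of -0.24. With the 9 rule genes left in the total, the counts were 319 and 889. Of 17 measured secondary and tertiary granule genes 16 were higher, with a median log2 ratio of 4.62, and Cyba alone was not called. Lcn2 was at 35.7 and 25.1 CPM in Mo/KC cells (346-fold lower than in late G cells), and Lyz2 at 10121 and 8171, so that the ratio of Lyz2 was only 2.78 (2.72 to 2.83). The 12 highest genes in late G cells in this comparison were Lcn2, Stfa2, Chil1, Retnlg, Prg2, 2010005H15Rik, Pglyrp1, Itgb2l, BC100530, Ceacam10, Hdc and Prss57.

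Of 18 measured monocyte and Kupffer cell markers 17 were lower than in Mo/KC cells and 0 higher. The 12 lowest genes were C1qb, Ms4a6c, Lgmn, Ctss, C1qc, Pld4, C1qa, Ckb, Ly86, Irf8, Fcgrt and Hmox1. The complement genes C1qa, C1qb and C1qc, which macrophages secrete, had 3, 3 and 0 UMIs in late G cells, and C1qb was at 1023 and 579 CPM in Mo/KC cells. Hmox1, the heme oxygenase by which macrophages recycle heme, was at 10.7 and 14.0 CPM in late G cells and 717 and 546 in Mo/KC cells (50.2-fold lower, 29.7 to 92.1). Lysosomal proteases were lower as well, with Ctsb at 341 and 397 against 1516 and 1109 and Ctss at 2 UMIs against 699 and 389 CPM. Among lipid and phagosome genes 3 were higher and 8 lower of 16. The S phase list gave 1 lower and the G2 and mitosis list 1 higher gene of 22 and 23, and the actin list 3 higher and 1 lower of 24. The Mo/KC cells were not free of late granule transcripts: 7 of them (4 in library 1, 3 in library 2) held at least 5% late rule UMIs and carried 32.6% of all such UMIs in the group.

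The late G cells were not uniform, and their spread was read in 3 ways. First, cells were ordered by UMIs per cell and divided, within each library, into 3 groups of near-equal size (29, 29 and 29 cells in library 1; 20, 21 and 21 in library 2), with median UMIs of 4455, 7886 and 14476 over both libraries. This order was chosen after the values had been seen. Mmp8 was at 2638, 1647 and 105 CPM from the lowest to the highest group in library 1 and at 924, 101 and 53.7 in library 2. Mmp9 went the same way in both libraries, from 774 over 337 to 49.97 CPM over both. Ly6g was at 732, 482 and 46.7 CPM in library 1 and at 389, 50.3 and 13.4 in library 2. The cells with the fewest UMIs thus had the highest levels of the gelatinase and collagenase genes and of Ly6g.

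In library 2 the middle and highest groups rested on few UMIs, 18 and 16 of Mmp8, 14 and 10 of Mmp9 and 4 of Ly6g in the highest group. Retnlg was at 9592, 2007 and 35.0 CPM in library 1 and at 578, 106 and 463 in library 2. A single cell held 135 of the 138 Retnlg UMIs of the highest group of library 2, and another held 18 of the 19 of its middle group. Without the cell with the most Retnlg UMIs in each group, an alternative chosen after seeing the data, the levels were 7101, 919 and 17.97 CPM in library 1 and 337, 5.95 and 10.6 in library 2. Lcn2 was lowest in the last group of each library (17505, 22515 and 6731 CPM in library 1 and 15188, 11333 and 4551 in library 2). Cebpe differed less between the groups (1289.8, 1324 and 1028). Fcnb ran the other way, at 442, 957 and 2294 CPM in library 1 and 683, 1827 and 2233 in library 2. The early rule genes sat almost wholly in the last group of library 1 and mostly there in library 2. Elane was at 0, 0 and 1769 CPM of all UMIs in library 1 and at 103, 668 and 2386 in library 2.

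**Figure D4:**
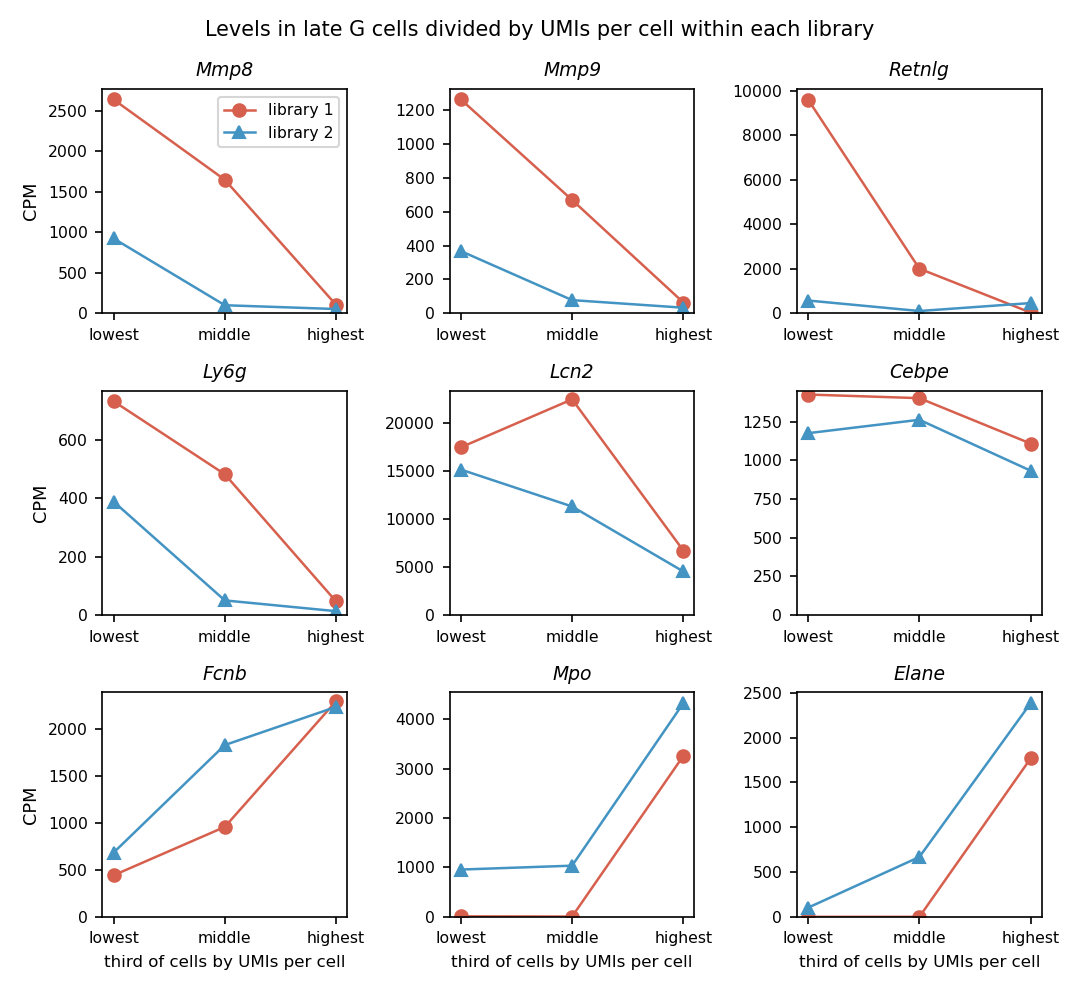
CPM of 9 genes in late G cells divided within each library into the lowest, middle and highest group by UMIs per cell, with circles for library 1 and triangles for library 2 and each y axis starting at 0. Mmp8, Mmp9 and Ly6g decline from left to right in both libraries, Fcnb and Elane climb, and the last Retnlg value of library 2 rests on 1 cell with 135 UMIs.

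Gene lists followed the same order. The secondary and tertiary granule list was at 87070.4, 78916 and 37493 CPM from the lowest to the highest group over both libraries, and the primary granule list at 3503, 5315 and 9359. S phase genes were at 429, 1431 and 3765 CPM in library 1 and 2027, 3264 and 3375 in library 2. G2 and mitosis genes were at 2309.6, 2647 and 5566 in library 1 and 3224, 4649.5 and 4504 in library 2, where the middle group was the highest. Ribosomal protein genes went from 98335 over 138345 to 178699 CPM and ER chaperones from 1020.4 over 1330.4 to 2405.

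Across single late G cells the same relations were seen as rank correlations, which are descriptions over 149 cells of 1 liver that share their libraries and whose measures share the cell's UMI total. UMIs per cell and the CPM of Mmp8 and Mmp9 together gave a Spearman rho of -0.75 (-0.71 in library 1, -0.57 in library 2), and UMIs and the share of early rule genes 0.67 (0.69 and 0.53). Of the late G cells, 70 had a Mmp8 UMI, 43 had at least 10 UMIs of the early genes and 1 had both, and since the early genes were part of the rule this is a description only. The summed CPM of Mmp8 and Mmp9 and of the G2 and mitosis list gave a rho of -0.46 (-0.48 and -0.36). At least 10 UMIs of that list were found in 92 late G cells, 42 of 87 in library 1 (48.3%) and 50 of 62 in library 2 (80.6%), whose cells were deeper, and 24 cells (14 and 10) had them beside a Mmp8 UMI.

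**Figure D5:**
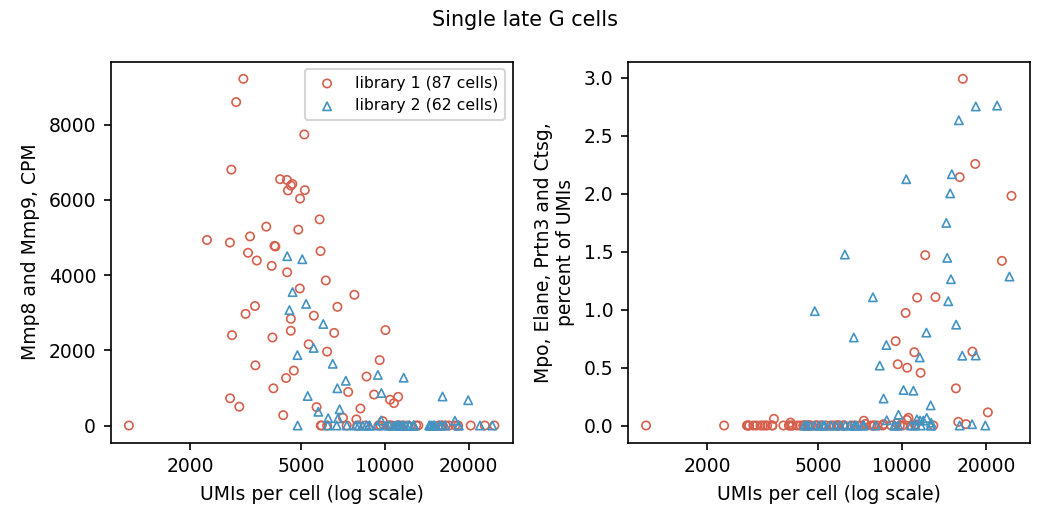
Each point is a late G cell, with its UMIs per cell on a log x axis against its summed CPM of Mmp8 and Mmp9 (left) and the percent of its UMIs in Mpo, Elane, Prtn3 and Ctsg (right), circles for library 1 (87 cells) and triangles for library 2 (62). High Mmp8 and Mmp9 levels lie in cells of few UMIs, and early gene shares, up to 2.99%, lie mostly in cells of many.

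Second, cells were ordered by the share of Ngp, Camp and Ltf among their late rule UMIs, whose median was 33.6% (0 to 54.4). In 16 cells (9 and 7) the share was under 10%, so that their late UMIs were nearly all S100a8 and S100a9. From the lowest to the highest of 3 groups, Lcn2 was at 4579.8, 9768 and 17963 CPM, Ly6g at 54.9, 154 and 326 and Cebpe at 959, 1174 and 1365, and all 3 followed this order in each library. Fcnb was at 2324, 1163 and 1498 CPM in library 1 and 2133, 1944 and 1346 in library 2, highest in the first group of each. Mmp8 was at 595, 1128 and 861 and at 33.2, 143 and 544 CPM. Retnlg was at 2919.8, 1968 and 565 CPM in library 1 and at 654, 78.9 and 367 in library 2, where 1 cell held 135 of the 138 UMIs of the first group. Ribosomal protein genes were at 189863, 162398 and 103364. Among the rule genes, Mpo was at 4331, 2203 and 127 CPM of all UMIs.

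In the last order, cells were ranked by their level of the G2 and mitosis genes. From the lowest to the highest group Mki67, a proliferation marker of that list, was at 21.3, 95.3 and 287 CPM, which the order itself sets. Outside the list, Mmp8 was at 1214, 421 and 190.2 while Hmgb2 was at 1974, 3234 and 6136. Hp was at 3197, 2834 and 2652 CPM in library 1 and 2249.6, 2170.1 and 2434 in library 2, and Cebpe at 1283, 1224 and 1206 and at 951, 918 and 1367. For both genes the most mitotic group was the lowest in library 1 and the highest in library 2. The secondary and tertiary granule list outside the rule was at 119095, 60770.5 and 55795 CPM in library 1 and 46188, 32609 and 55289.5 in library 2.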

How the data were processed

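The measured cells came from a single E12.5 wild-type liver, loaded as 2 technical libraries. The authors deposited raw UMI counts per gene and barcode for 27998 genes, made per their methods and processing notes with bcl2fastq 2 and Cell Ranger 2.1.1 on mm10 (the matrix header of library 1 names software version 3.0.0), and a table of 10537 cells with cell types, phases and clusters from Seurat 3.2.0. Cells were assigned to libraries by barcode suffix, because the table's library column was empty for library 2. The score, gene number and UMI number columns of that table were not used. Doublets had been sorted out before loading, and no doublet caller was run.

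The members, gene lists and comparisons were chosen with earlier results of these data known. UMI counts were summed over cells of a group and library, and CPM of genes outside the rule took all UMIs outside the 9 rule genes as the total. A gene was called at 2-fold or more in the same direction in each library with at least 20 CPM in either group of each. Genes whose symbol has more than 1 identifier (56 symbols) were left out, and some list members are not reported here. Counts carry exact Poisson, shares exact Clopper-Pearson and ratios exact conditional binomial 95% intervals. Groups at 0 were set to 3 counts in ratios and list medians. With 1 liver no p-value was computed. Named genes were those that carry a list, by level or ratio, and the 12 highest and 12 lowest called genes of each comparison, ranked by the smaller of the libraries' log2 ratios. Shares of cells with a UMI were thinned to 3700 UMIs per cell. Steps were tested on simulated data. Values were computed in Python 3.11.15 with scipy 1.17.1, pandas 2.3.3 and numpy 2.4.6, and drawn with matplotlib 3.10.9. Promoter sequences came from RefSeq (GRCm38.p6). Alternatives changed the libraries, the rule, the cells kept, the total, the fold, the CPM minimum and the thinning. Median depth was 7904 UMIs per late G cell, and 1132759 UMIs outside the rule genes stood behind the late G values.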

Additional observations from a re-analysis of the deposited data

Results flagged for a closer look

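Late granule transcripts also appeared in barcodes that the comparisons do not use. In library 2, 6258 barcodes with at least 500 UMIs had not been called as cells, and in 76 of them the 5 late rule genes held at least 5% of UMIs. These 76 barcodes had a median of 1368 UMIs, at most 4363, and a median late share of 15.0%, against a median of 10243.5 UMIs in the late G cells of that library. With at least 1000 UMIs there were 49 among 3461. In library 1, 241 barcodes with at least 500 UMIs had not been called as cells, and 0 of them reached the 5%.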

How the results depend on the processing

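At 3-fold in each library, 313 genes were higher and 365 lower than in other G cells, and 246 and 297 than in Mo/KC cells. At 50 CPM or more, the counts were 344 and 525, and 272 and 373. With no CPM minimum they were 719 and 1175, and 540 and 839. With 1 library left out, 729 to 909 genes were higher and 1225 to 1429 lower than in other G cells, and 621 to 757 higher and 1021 to 1191 lower than in Mo/KC cells. All genes called over both libraries were also called in each library alone, where only 1 library had to pass. The log2 ratio of the summed secondary and tertiary granule genes (4.35) was 4.62 without G cells between 1/3 and 2/3, 4.50 without the tenth of cells with the most UMIs, 4.12 with all UMIs as the total, 4.62 as the mean of each cell's CPM and 4.50 without cells of at least 2% erythroid UMIs. That of primary granule genes (-0.47) was -0.82 as the mean of each cell's CPM, and that of G2 and mitosis genes (0.58) was 0.35 with all UMIs as the total and 0.41 as the mean of each cell's CPM. In the single libraries these ratios ran from 4.24 to 4.43, from -0.67 to -0.27 and from 0.52 to 0.63, that of S phase genes from -0.58 to -0.14 and that of nucleolar genes from -2.38 to -1.96. The late share of G cells ran from 47.7% to 55.4% and the thinned share of cells with Ly6g from 20.05% to 39.52%. Among cells at or above the lowest UMIs of library 2, the late share over both libraries was 48.8%. No called gene was called in the opposite direction under an alternative, while the signs of genes that were no longer called were not checked. With all UMIs as the total, 78 of 84 values kept their sign, and 6 list sums did not, among them the cyclin, monocyte and nuclear lists against other G cells. The 2 alternatives that left out cells rich in erythroid UMIs or with fewer UMIs than the lowest of library 2 were chosen after seeing the data, and gave 586 and 859, and 535 and 832 genes against other G cells. Of these, 491 and 745, and 520 and 818, were also called with all cells. No paired analysis was possible because no result comes from a test, with 1 liver behind both libraries. The libraries repeat 1 liver, so spread between embryos is not covered.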

Other observations

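Several abundant genes differed widely between the libraries in every group. Pgk1, a glycolytic kinase, was at 379.8 CPM in library 1 and 1.75 in library 2 in late G cells, at 336 and 9.04 in other G cells and at 370.2 and 6.85 in Mo/KC cells. Eno1, enolase, was at 1015 and 157, 889 and 149, and 1173 and 204 CPM in the same order of groups. Hmgn2, a nucleosome-binding protein that was called higher in late G cells, was at 3459 and 832 CPM in late G cells, 1568 and 352 in other G cells and 901 and 271 in Mo/KC cells. Since library 1 was higher in all 3 groups for each of these genes, their levels were read only within a library. Ifitm6 and Retnlg, at 1938 and 215 and at 1874 and 371 CPM in late G cells, were also higher in library 1. Both are given here for late G cells alone. The cells kept also differed, since 23 of the 87 late G cells of library 1 had fewer than 4387 UMIs, the lowest value in library 2. The part of this in the difference was not tested.

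A further gap lay in a few late G cells. The late rule genes held under 5% of UMIs in 19 late G cells (7 in library 1, 12 in library 2), and 2 cells of library 1 had fewer than 100 late UMIs.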
